A study of Arabidopsis thaliana with 12 samples.

Results

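The chloroplast genome of Arabidopsis thaliana carries genes for core subunits of the photosynthetic machinery, and 39 of them were followed here across roots and shoots. The genes were chosen by name: single-gene features of the chloroplast genome whose symbol starts with psa (photosystem I), psb (photosystem II), pet (cytochrome b6f), atp (ATP synthase), ndh (the NDH complex) or rbcL (Rubisco). In RefSeq's annotation of assembly TAIR10.1 the chloroplast genome holds 44 such symbols. The 5 others, atpB, atpE, ndhB, psbC and psbD, had no feature of their own and were not analysed here. Each of the 39 genes had 1 feature, and these are 39 of 38408 features on the array.

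Photosystem II splits water, cytochrome b6f passes the electrons on, photosystem I lifts them to ferredoxin, and ATP synthase uses the proton gradient built on the way. The NDH complex returns electrons from ferredoxin to the plastoquinone pool around photosystem I, and Rubisco fixes carbon dioxide. Each of these assemblies joins subunits from the chloroplast genome with subunits from the nucleus, and the plastids of roots, which are mostly not green, carry the same genome as leaf chloroplasts. Many chloroplast genes are transcribed together in multigene units and then processed into shorter RNAs.

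RNA was measured on 12 one-colour Affymetrix arrays in 4 groups of 3, from the roots and the shoots of seedlings given estradiol and of seedlings given DMSO. These groups are those of the array titles, while the source names give estradiol for every root and DMSO for every shoot array. All groups were seedlings with an estradiol-inducible CLE3 transgene, which encodes a small secreted peptide. They grew for 7 days at 22 °C under continuous white light of 25 to 30 μmol per square metre and second, and their roots then received 5 mM estradiol (the unit as labelled) or the solvent DMSO for 24 h before roots and shoots were taken apart. Every group carried the transgene, so estradiol itself and induced CLE3 cannot be told apart. The labels name neither the promoter of the inducible system nor the number of transgenic lines. They also leave it unsaid if replicates were grown separately, and p-values therefore cover the spread among these arrays alone, which may be technical. No single-gene feature was named CLE3 (0 features), so the induced gene was not analysed here.

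The arrays titled root DMSO replicate 3 and shoot estradiol replicate 3 had the profile of the other organ. Over features outside the chloroplast genome, the first had a mean correlation of 0.873 with the 5 other root arrays that remain in use and 0.981 with the 5 shoot arrays, and the second 0.985 with root and 0.872 with shoot arrays. The same split was seen in the chloroplast genes: root DMSO replicate 3 lay within the range of the 5 shoot arrays for 20 genes and of the 5 root arrays for 1, and shoot estradiol replicate 3 lay within the root range for 21 and the shoot range for 1. Neither array was moved to another group. Results below come from the other 10 arrays (from roots 3 with estradiol and 2 with DMSO, from shoots 2 with estradiol and 3 with DMSO) unless all 12 are named. On these 10 arrays all 6 measured root markers were called lower and all 4 shoot markers higher in shoots.

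Most chloroplast photosynthesis genes were higher in shoots than in roots, but by modest amounts. Under DMSO 33 of 39 passed the test as higher in shoots and none as lower, where a test is limma's at a Benjamini-Hochberg adjusted p of 0.05 over all features. Over all features 19.9% were called higher in shoots and 19.3% lower. The difference was positive for 38 genes (56.1% of all features), with a median log2 difference of 0.86 against 0.09 over all features. Under estradiol, on arrays not shared with the first comparison, 32 of 39 were called higher and none lower, with a background of 19.8% higher and 19.5% lower and a median of 0.77 against 0.07. There 37 differences were positive (54.9% of all features). Every shoot array lay above every root array for 33 genes (20.2% of all features did so) and below for 1 gene (21.1%). In these bulk samples fewer green cells and less chloroplast RNA per cell cannot be told apart.

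With all 12 arrays in the groups of their titles, limma called 0 of the 39 genes in either organ comparison. Of all 38408 features it called 0 under DMSO and 1 under estradiol. An unadjusted p under 0.05 was found for 15 genes under DMSO, beside 6642 of all features, and for 13 genes under estradiol, beside 5701. The medians were then 0.57 and 0.55. On the 10 arrays 35 and 32 genes had an unadjusted p under 0.05, beside 46.8% and 47% of all features.

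**Figure D1:**
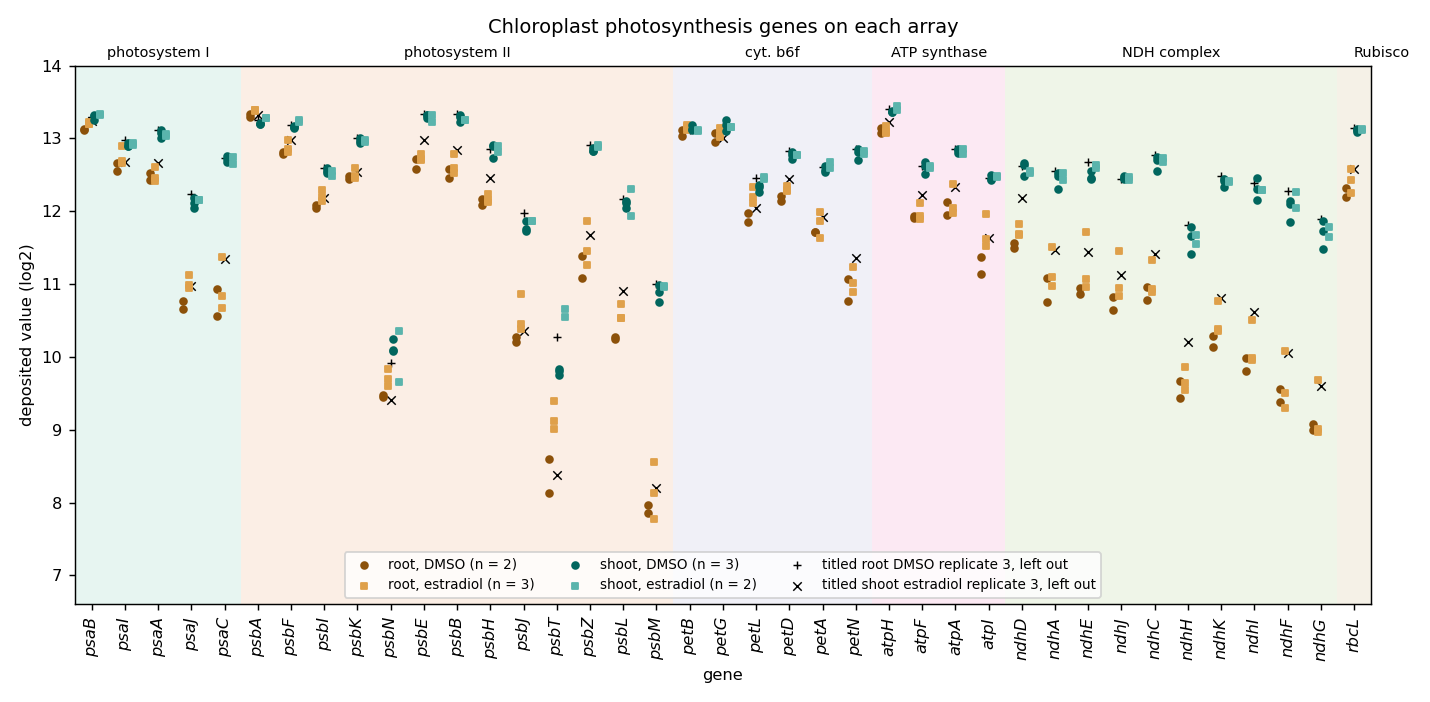
Deposited log2 value (vertical axis) of each of the 39 genes (horizontal axis, grouped by complex) on every array, with points for the 10 arrays used and crosses for the 2 arrays left out. Shoot arrays lie above root arrays for most genes, the genes with the highest values in both organs show the smallest gap, and for most genes each cross lies nearer the points of the organ that its title does not name.

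The NDH genes had the highest median organ difference of the complexes. In shoots all of them but ndhC lay more than 1 log2 unit below the mean of the highest array values. All 10 measured members were called higher in shoots under both treatments, with medians of 1.93 under DMSO and 1.78 under estradiol and a range of 1.06 to 2.66 under DMSO. ndhG, a membrane subunit, read 8.99 and 9.08 in roots with DMSO, 8.97, 9.01 and 9.68 in roots with estradiol, 11.73, 11.48 and 11.87 in shoots with DMSO, and 11.79 and 11.64 in shoots with estradiol. Every shoot value was above every root value, and among the roots the third estradiol array was the highest. The array titled root DMSO replicate 3 read 11.89 and that titled shoot estradiol replicate 3 read 9.60. The ndhG difference between shoot and root was 2.66 (SE 0.22), or 6.31-fold, under DMSO (limma adjusted p 1.63e-05), and 2.49 (SE 0.22) under estradiol.

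ndhF, another membrane subunit and the sole NDH member encoded apart from the other groups of ndh genes measured here, differed by 2.56 (SE 0.22) under DMSO and by 2.53 (SE 0.22) under estradiol. ndhD, also a membrane subunit, had the smallest difference of the complex. It read 11.49 and 11.57 in roots with DMSO, 11.67, 11.69 and 11.82 in roots with estradiol, 12.66, 12.48 and 12.63 in shoots with DMSO, and 12.56 and 12.53 in shoots with estradiol. The organs did not overlap for ndhD, and the difference of 1.06 (SE 0.11) under DMSO had a limma-adjusted p of 8.81e-05.

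Photosystem II spanned the whole range of differences. Of its 13 measured genes 12 were called higher in shoots under DMSO and 11 under estradiol, with medians of 0.72 and 0.62. psbM, a small subunit of photosystem II, had the largest organ difference of the 39 genes. It read 7.86 and 7.96 in roots with DMSO, 7.78, 8.13 and 8.55 in roots with estradiol, 10.75, 10.89 and 10.99 in shoots with DMSO, and 10.98 and 10.96 in shoots with estradiol. The lowest shoot array was far above the highest root array. The difference under DMSO was 2.97 (SE 0.20), or 7.83-fold (limma adjusted p 4.88e-06), and under estradiol 2.82 (SE 0.20).

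psbA, which encodes the reaction centre protein that light damages and the plant replaces fastest, was at the other end. It read 13.34 and 13.29 in roots with DMSO, 13.39, 13.38 and 13.39 in roots with estradiol, 13.20, 13.21 and 13.20 in shoots with DMSO, and 13.28 and 13.28 in shoots with estradiol. Every shoot array lay just below every root array, the single gene of the 39 with that order. In both organs psbA lay 0.44 below the mean of the highest array values. The part of brightness in its difference was not tested. The difference was -0.12 (SE 0.10) under DMSO and -0.11 (SE 0.10) under estradiol, and neither passed the test (limma adjusted p 0.398 and 0.426). The 95% interval under DMSO ran from -0.34 to 0.11. With quantile normalization all 39 differences under estradiol were positive, so the sign of psbA there depends on the scaling.

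Other photosystem II genes lay between these. psbB, which encodes an inner antenna protein, differed by 0.76 (SE 0.12) under DMSO. psbL, psbZ and psbJ, small subunits, differed by 1.84 (SE 0.14), 1.60 (SE 0.18) and 1.54 (SE 0.16) under DMSO. psbN, whose product is needed to assemble the complex in tobacco, was called under DMSO at 0.68 (SE 0.19, limma adjusted p 0.0218) but not under estradiol at 0.30 (SE 0.19, adjusted p 0.266), and the difference between these values was not called (limma adjusted p 1).

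In photosystem I 3 of 5 genes were called higher in shoots under each treatment. psaC, an iron-sulphur protein on the ferredoxin side, read 10.56 and 10.93 in roots with DMSO, 10.67, 10.84 and 11.37 in roots with estradiol, 12.67, 12.72 and 12.76 in shoots with DMSO, and 12.65 and 12.74 in shoots with estradiol. All shoot arrays were above all root arrays, and the roots spread more widely than the shoots. Its difference was 1.97 (SE 0.21), or 3.92-fold, under DMSO (limma adjusted p 6.88e-05). psaB, a reaction centre core protein, read 13.12 to 13.22 on the root arrays and 13.26 to 13.34 on the shoot arrays. Those ranges did not overlap, but the difference of 0.17 (SE 0.10) under DMSO did not pass (limma adjusted p 0.203). The small subunit psaI was not called either, at 0.30 (SE 0.12, limma adjusted p 0.0721).

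In cytochrome b6f 4 of 6 genes were called higher in shoots under DMSO and 3 under estradiol. petN, a small subunit that the complex needs in tobacco, read 10.77 and 11.07 in roots with DMSO, 10.89, 11.01 and 11.23 in roots with estradiol, 12.71, 12.85 and 12.81 in shoots with DMSO, and 12.79 and 12.83 in shoots with estradiol. The organs were well apart, and the difference of 1.87 (SE 0.14), 3.66-fold, had a limma adjusted p of 1e-05 under DMSO. petB, which encodes a cytochrome subunit, read 13.04 to 13.18 on the root arrays and 13.10 to 13.18 on the shoot arrays. Its organs overlapped, with a difference of 0.06 (SE 0.10) under DMSO and -0.04 (SE 0.10) under estradiol. petG, a small subunit, was not called under either treatment, and petL, another, was called under DMSO alone, at 0.41 (SE 0.11) against 0.23 (SE 0.11) under estradiol.

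Of 4 ATP synthase genes 3 were called higher in shoots under DMSO and 4 under estradiol. atpI, which encodes a membrane subunit next to the rotor ring, read 11.14 and 11.37 in roots with DMSO, 11.52, 11.62 and 11.96 in roots with estradiol, 12.45, 12.43 and 12.50 in shoots with DMSO, and 12.47 and 12.48 in shoots with estradiol. The shoot arrays were nearly equal and all above the roots, which differed among themselves. The atpI difference was 1.21 (SE 0.15) under DMSO and 0.77 (SE 0.15) under estradiol. atpH, the subunit of the rotor ring, differed by 0.26 (SE 0.10, limma adjusted p 0.0739) under DMSO and by 0.30 (SE 0.10, adjusted p 0.0439) under estradiol.

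rbcL, the large subunit of Rubisco, read 12.20 and 12.32 in roots with DMSO, 12.25, 12.43 and 12.58 in roots with estradiol, 13.11, 13.09 and 13.13 in shoots with DMSO, and 13.11 and 13.13 in shoots with estradiol. No root array reached the shoot values. The difference was 0.85 (SE 0.13), or 1.81-fold, under DMSO (limma adjusted p 0.000594), and 0.70 (SE 0.13) under estradiol.

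**Figure D2:**
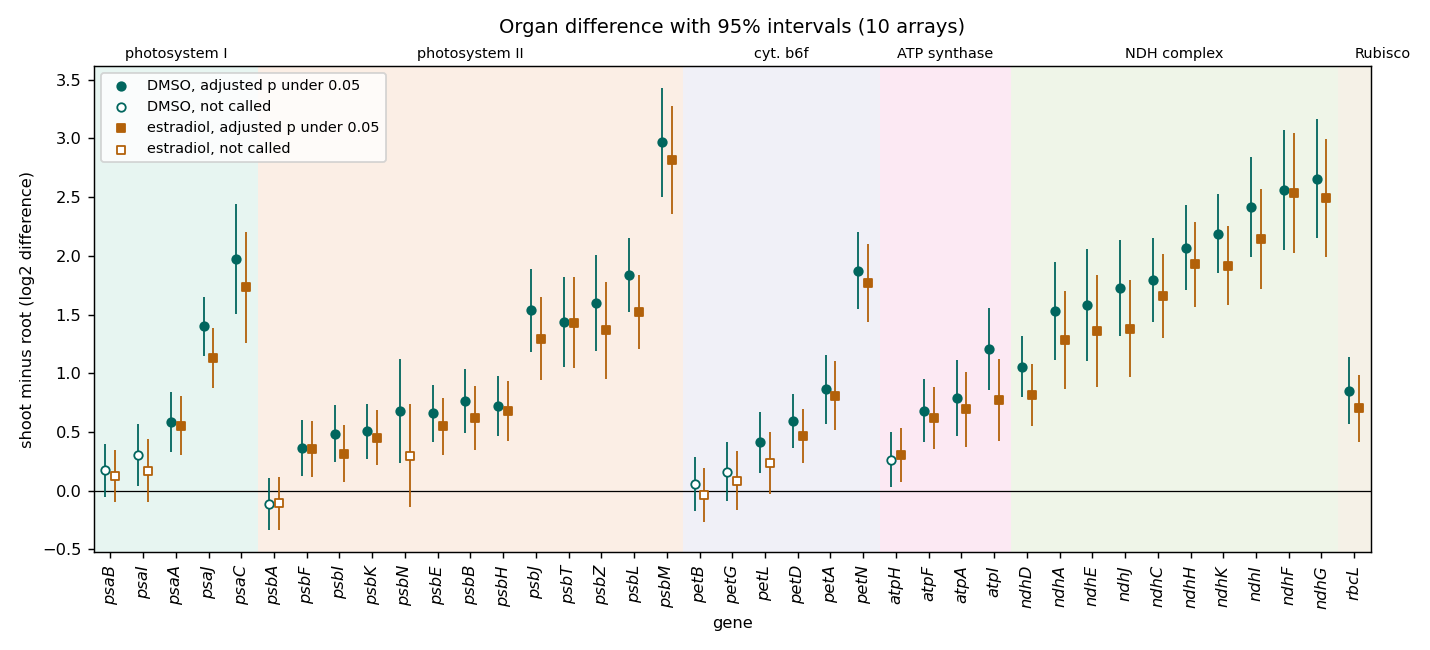
Shoot minus root log2 difference (vertical axis) of each gene (horizontal axis, by complex and size) under DMSO and under estradiol, with 95% intervals from limma on 10 arrays and filled symbols for an adjusted p under 0.05. All NDH genes lie above 0 with their intervals, while psbA, petB, petG and psaB are open symbols near 0 under both treatments. The symbols of psaI are open under both as well, at 0.30 under DMSO (interval 0.04 to 0.57) and 0.17 under estradiol. Those of atpH (DMSO), psbN and petL (estradiol) are open under 1.

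The features closest to the top of the scale included most of the genes with the smallest organ differences. The highest value of an array was 13.62 to 13.84, and a feature within 1 log2 unit of it is called near the maximum here. On the shoot arrays 19 of the 39 genes were on average near the maximum, and 13 of these were called higher in shoots under DMSO with a median of 0.59. All 20 others were called, with a median of 1.53. All 6 genes not called under DMSO (psaB, psaI, psbA, petB, petG and atpH) were among the 19. Of the NDH genes ndhC alone was among them, while rbcL and all measured photosystem I genes but psaJ were. The part of brightness in the ranking of the complexes was not tested. Small differences were also measured outside this limit of 1 log2 unit, with 0.32 for petL, 0.40 for psbI and 0.49 for psbN (means of both treatments). In shoots petL and psbI lay just past the limit, 1.3 and 1.1 below the maximum, and psbN lay 3.59 below it. psaC, petN, ndhC and psbZ were near the maximum in shoots with differences of 1.85, 1.82, 1.73 and 1.48. They lay just inside the limit, from 0.82 (psbZ) to 1.00 (ndhC) below the maximum. For all of these genes but psbN, the side depends on where the limit was set. psbA lay 0.44 below the maximum in both shoots and roots, petB 0.55 in shoots and 0.68 in roots, and atpH 0.29 in shoots and 0.69 in roots.

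Bright features on such arrays can saturate, so that a higher RNA level no longer raises the value. The deposited table carries no saturation flag, and the part of saturation in these differences was not tested. The organ difference (mean of both treatments) and the shoot mean had a Spearman correlation of -0.66 and a Pearson correlation of -0.50 across the 39 genes. With the root mean the values were -0.87 and -0.87. The root and shoot means are themselves terms of the difference, and genes are not independent replicates, so these correlations are descriptions. In roots psaC, petN and psbZ lay 2.93, 2.81 and 2.38 below the maximum. Among features outside the chloroplast genome, the 15 within 0.5 of the maximum in shoots differed by -0.32 to 0.81, and the 59 at 0.5 to 1 below it by -0.45 to 2.67. Their medians were -0.016 and -0.10, against 0.32 and 0.70 for the members of the 39 genes at the same distances.

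**Figure D3:**
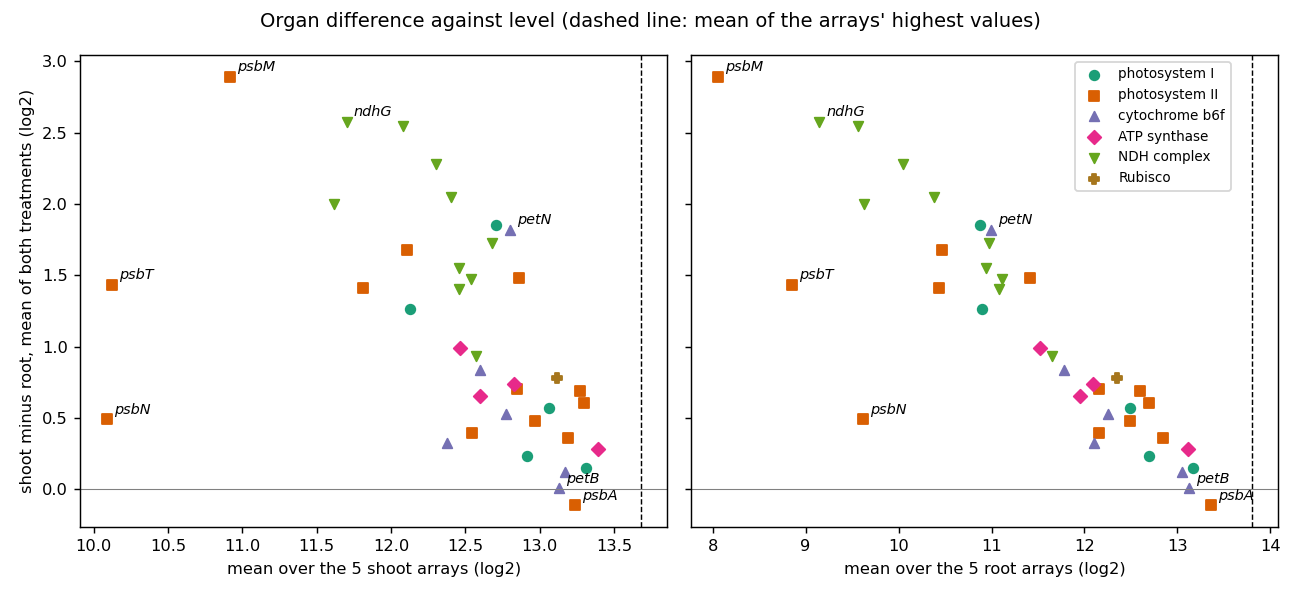
Organ difference (shoot minus root log2, mean of both treatments) of the 39 genes against their mean value on the 5 shoot arrays (left) and the 5 root arrays (right), coloured by complex, with a dashed line at the mean of the arrays' highest values. psbA and petB, close to the line, have differences near 0, but psbB and psbE, also close to it in shoots, have 0.69 and 0.60. psbM and ndhG, farther from it, have the largest. psbN, low only among these genes at 10.09 in shoots and 9.61 in roots, has 0.49.

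The spread between arrays was wider in roots than in shoots for most of these genes, and much of it came with 1 array. The median SD within groups was 0.12 in roots and 0.047 in shoots for the 39 genes, against 0.18 and 0.22 over all features. In 34 of 39 genes (87.2%) the roots varied more than the shoots, compared with 39.4% of all features. Without root estradiol replicate 3 the median SD in roots was 0.0705, and the roots varied more in 26 genes (66.7%), compared with 34.2% of all features. More of the 39 genes were within 1 log2 unit of the array maximum on the shoot arrays used (16 to 21) than on the root arrays used (5 to 7). The part of this in the spread was not tested.

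Measured organ differences within a transcription unit were close together in some units and far apart in others. In the unit psbB-psbT-psbH-petB-petD the difference (mean of both treatments) ran from 0.01 for petB to 1.43 for psbT, with psbB at 0.69, psbH at 0.70 and petD, a further cytochrome b6f subunit, at 0.53. psbN, which lies between psbT and psbH and is read from the other strand, had 0.49. In the unit psbE-psbF-psbL-psbJ the subunits of cytochrome b559 had 0.60 (psbE) and 0.36 (psbF), and the neighbours psbL and psbJ had 1.68 and 1.41. In the unit that holds ndhH, ndhA, ndhI, ndhG, ndhE, psaC and ndhD, the values lay between 0.94 (ndhD) and 2.58 (ndhG), and the photosystem I gene psaC in their midst had 1.85. The unit atpI-atpH-atpF-atpA ranged from 0.28 (atpH) to 0.99 (atpI). psbK and psbI, small photosystem II subunits of 1 unit, were close together at 0.48 and 0.40. Differences within a unit were not tested, and features of different genes can differ in how strongly their probes respond. The lowest values of these 5 units belonged to petB, psbF, atpH, ndhD and psbI. Of these petB, psbF and atpH were near the maximum on the shoot arrays. ndhD and psbI were not, but lay just past that limit, each 1.1 below the maximum.

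**Figure D4:**
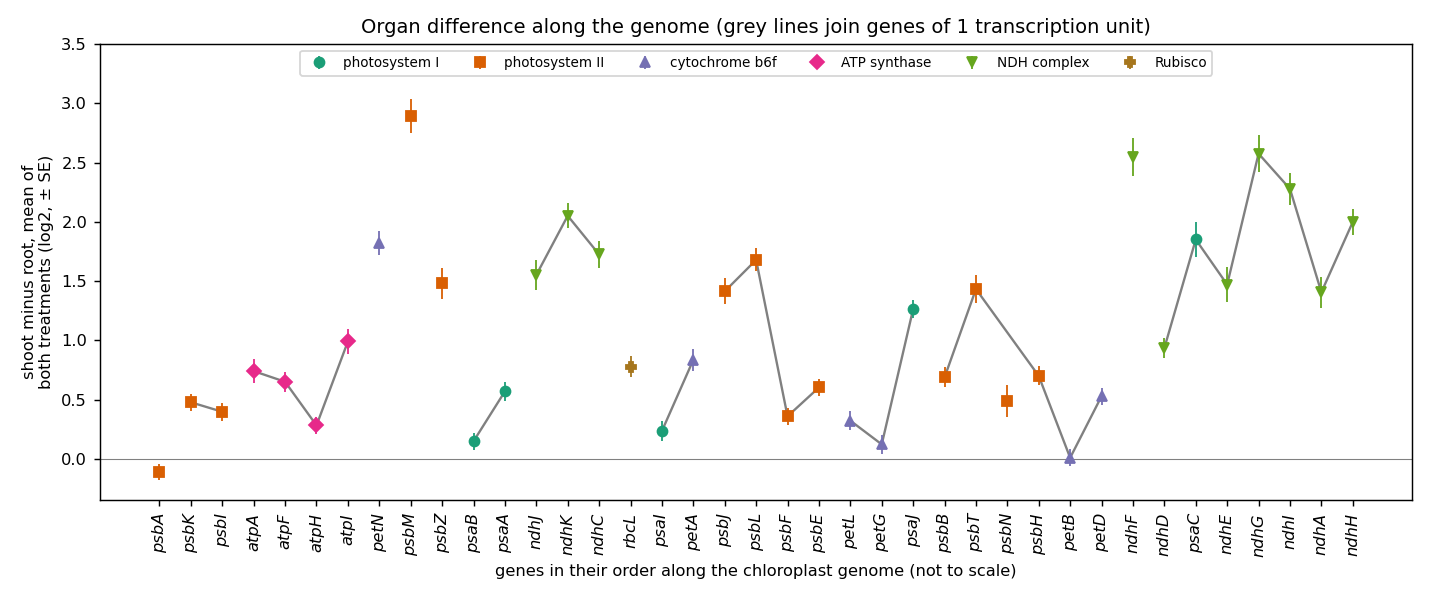
Shoot minus root log2 difference, mean of both treatments with its SE (vertical axis), for the 39 genes in their order along the chloroplast genome (horizontal axis, not to scale), with grey lines joining genes of 1 transcription unit. Some neighbours in a unit have unlike values, as psbF (0.36) and psbL (1.68), others like values, as psbK (0.48) and psbI (0.40), and the ndh genes near the right end are high.

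Of 99 listed names of nuclear subunits, electron carriers, light-harvesting proteins and Rubisco proteins, 14 genes were measured. All 14 were called higher in shoots under both treatments, with medians of 3.46 under DMSO and 3.18 under estradiol. NdhL, an NDH subunit, had 4.61 (SE 0.38) under DMSO, and LHCB4.3, a minor antenna protein, had 1.50 (SE 0.15). The 24 other chloroplast genes with a feature of their own, which include those of the plastid's gene expression, were called higher in shoots in 24 cases under DMSO and 20 under estradiol, with medians of 1.48 and 1.31. These groups of genes were not tested against each other, and the nuclear values cover a small share of the listed names. None of the 22 names in a list of chloroplast transcription factors and polymerases had a feature of its own.

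Estradiol on the roots was not followed by a called change in any of the 39 genes in either organ. In roots limma called 0 of 39, with 5 at an unadjusted p under 0.05, beside 0.0026% of all features called (1 feature) and 3.75% at an unadjusted p under 0.05. All 39 differences in roots were positive (48.2% of all features were), with a median of 0.16 against -0.008 over all features, and 34 were positive with quantile normalization. The medians were 0.23 for the NDH genes, 0.15 for photosystem I, 0.14 for photosystem II, 0.12 for cytochrome b6f and 0.08 for ATP synthase, and rbcL had 0.16 (SE 0.13). Intervals at 95% reached a median of 0.30 on either side of a difference, and 38 of 39 lay between -1 and 1.

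The size of the root differences moved with 1 array. Root estradiol replicate 3 was the highest of the 5 root arrays for 37 of 39 genes (94.9%), for 23 of the 24 other chloroplast genes and for 13 of the 14 nuclear genes, compared with 22% of all features. Its mean over the 4 shoot markers was 8.13, while the other root arrays had 7.18 to 7.86 and the shoot arrays used had 10.59 to 10.71. Of these markers LHCB4.1 and RCA are also among the 14 nuclear genes. The mean over the root markers on root estradiol replicate 3, 10.18, was close to the 10.08 to 10.15 of the other root arrays. Without that array the median of the 39 genes in roots was 0.07, and 33 were still positive. Whether shoot tissue or another difference in that sample set these values was not tested. On all 12 arrays the root median was -0.18 with 9 positive, and limma called 0 genes, with 0 at an unadjusted p under 0.05. Of all 38408 features it called 0, with 839 at an unadjusted p under 0.05.

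In shoots limma called 0 of 39 genes, with 1 at an unadjusted p under 0.05, beside 0% of all features called and 8.14% at an unadjusted p under 0.05. There 25 differences were positive and 14 negative (47.5% of all features were positive), with a median of 0.012 against -0.013 over all features. With each array centred on its median 37 of the 39 were positive, with quantile normalization 20, so the split of signs in shoots depends on the scaling. On all 12 arrays the median was -0.17 with 3 positive, with 0 genes called and 0 at an unadjusted p under 0.05. Of all 38408 features limma then called 0, with 1820 at an unadjusted p under 0.05.

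psbT, a small photosystem II subunit that in the alga Chlamydomonas is linked to recovery from light damage, had the largest estradiol difference of the 39 genes in each organ. In roots it read 8.60 and 8.13 with DMSO and 9.12, 9.01 and 9.39 with estradiol. In shoots it read 9.75, 9.83 and 9.81 with DMSO and 10.55 and 10.66 with estradiol. In each organ every estradiol array was above every DMSO array, an order shown by 9.65% of all features in roots and 10% in shoots.

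The psbT difference was 0.81 (SE 0.17) in roots and 0.81 (SE 0.17) in shoots, 1.75-fold in each, with intervals of 0.42 to 1.19 in both. Neither passed, with limma adjusted p of 0.999 in roots and 0.293 in shoots (unadjusted 0.00114 and 0.00117). By unadjusted p psbT stood at rank 28 of 38408 features in roots and 134 in shoots. By size of the difference it stood at 391 and 607 from the top. It was named for its values in these same comparisons, so its ranks and the order of its arrays are no separate support. Leaving out 1 array at a time moved the root difference between 0.58 and 1.04 and the shoot difference between 0.75 and 0.86. The lowest root value came without root DMSO replicate 2, which had the lower of the DMSO readings. The arrays titled root DMSO replicate 3 and shoot estradiol replicate 3 read 10.28 and 8.38, and with them the differences were 0.17 (SE 0.64) and 0.06 (SE 0.64). The neighbours of psbT in its transcription unit had smaller differences, with psbB at 0.12 (SE 0.12) in roots and -0.03 (SE 0.12) in shoots and psbH at 0.05 (SE 0.11) and 0.01 (SE 0.11).

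Other members with the smallest p in roots were atpI, at 0.45 (SE 0.15), and psaJ, a small photosystem I subunit, at 0.31 (SE 0.11). petL had 0.31 (SE 0.11) and psbL 0.33 (SE 0.14). For atpI, psaJ, petL and psbL every root estradiol array was above both root DMSO arrays, an order shown by 9.65% of all features. These genes were picked by their p in the same comparison, so the order is no separate support. Their limma adjusted p was 0.999 each. In shoots psbT was followed by petL at 0.13 (SE 0.11) and psbA at 0.08 (SE 0.10), and the negative values with the smallest p were psbN at -0.13 (SE 0.19), ndhD at -0.05 (SE 0.11) and psbI at -0.03 (SE 0.11). The psbN values in shoots with estradiol were 9.66 and 10.36, on either side of the 10.08 to 10.25 with DMSO.

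Every root estradiol array lay above every root DMSO array for 17 of 39 genes (9.65% of all features), and below for 0 (11.3%). In shoots the counts were 8 above (10%) and 0 below (11.6%). Roots with DMSO and shoots with estradiol had 2 arrays each, and genes are not independent replicates, so these counts are descriptions.

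**Figure D5:**
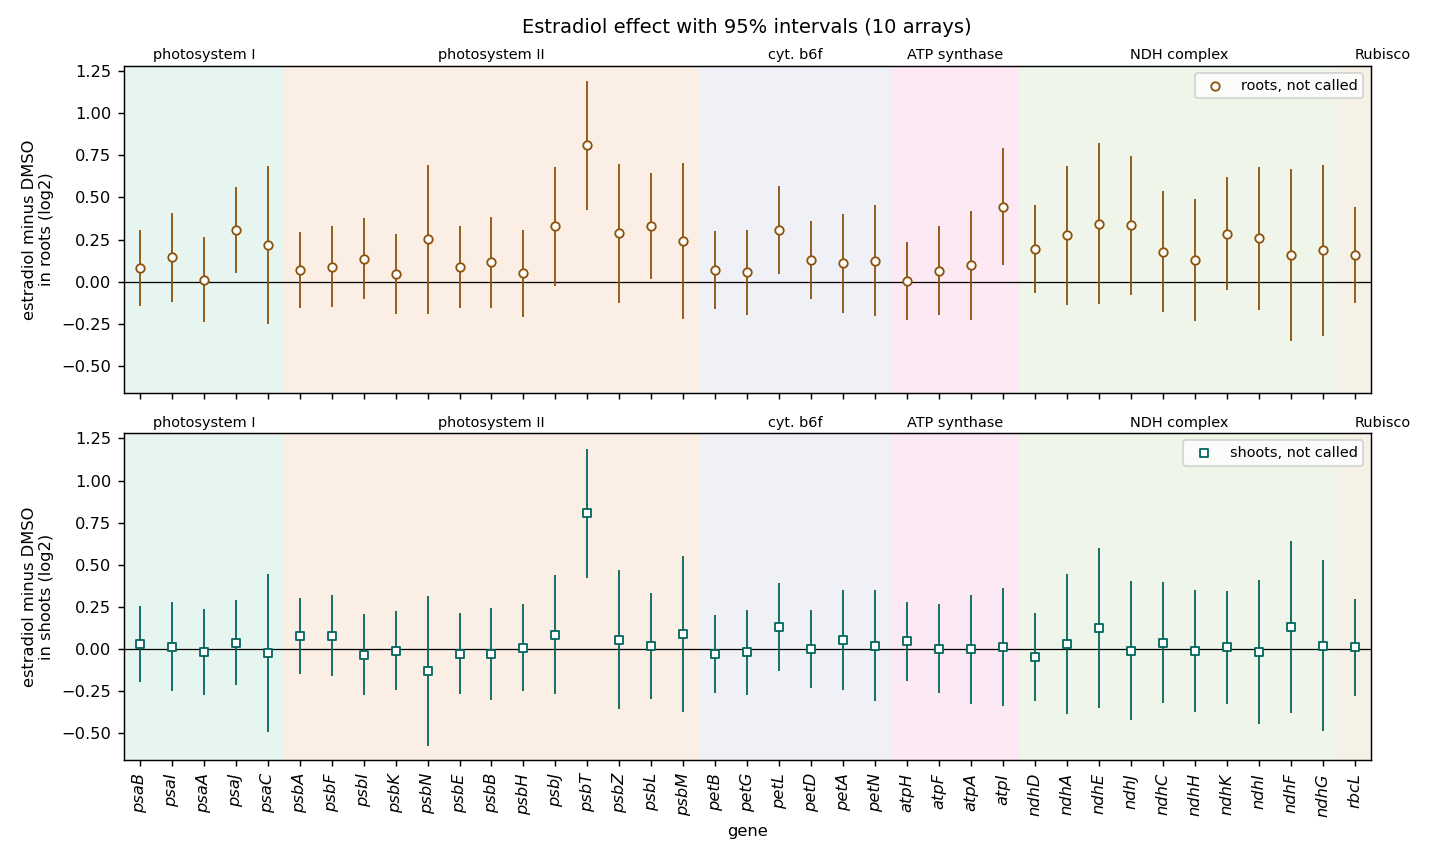
Estradiol minus DMSO log2 difference (vertical axes) of each gene (horizontal axis, by complex) in roots (top) and in shoots (bottom), with 95% intervals from limma on 10 arrays. No gene is called, all root differences are above 0 on the deposited scale (34 with quantile normalization), shoot differences scatter around 0, and psbT stands out in both organs at 0.81.

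The estradiol effect did not differ detectably between the organs. Of the 39 genes limma called 0 for the effect in shoots minus the effect in roots, with 0 at an unadjusted p under 0.05, beside 0.0026% of all features called and 4.76% at an unadjusted p under 0.05. The median was -0.14, with 2 positive values (49.2% of all features), against -0.005 over all features. Without root estradiol replicate 3 the median was -0.05, with 12 positive, and without root DMSO replicate 1 it was -0.09. The smallest unadjusted p belonged to atpI at -0.43 (SE 0.22), psaJ at -0.27 (SE 0.16) and psbL at -0.31 (SE 0.19), each with a limma adjusted p of 1. For psbT it was -0.004 (SE 0.24), with an interval from -0.55 to 0.54. On all 12 arrays the median over the 39 genes was -0.018, with 0 called and 0 at an unadjusted p under 0.05. Of all 38408 features limma then called 0, with 799 at an unadjusted p under 0.05.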

How the data were processed

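The deposited table by the authors gives each feature on each array a number read as log2 expression, since the range is 0.19 to 13.84; no label states the scale. The submitters' processing notes name Affymetrix Expression Console 1.3, with settings not given in the sources used here, and there is no detection or saturation flag. Array medians were 4.99 to 5.09. Precision is limited by how many arrays there are.

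Groups and replicate numbers came from the titles; the source names, which give estradiol for every root and DMSO for every shoot array, were not used. Features were named through the platform annotation and the RefSeq gene table of TAIR10.1: 16722 had 1 gene, 759 several and 20927 none listed. Where a gene had several features, the one with the highest mean was to stand for it.

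The 4 group means were fitted to 10 arrays by lmFit and eBayes of limma 3.58.1 (R 4.3.3), with two-sided tests. P-values were adjusted over all 38408 features, with a threshold of 0.05. The fit was tested on simulated data. Alternatives were all 12 arrays (also with array weights), an intensity trend, a replicate block, a filter at a group mean of 5, quantile normalization, centring, compared groups alone, a 2-fold threshold, no genes near the maximum and each array left out. A fit without replicate 3 (8 arrays) was added after seeing the data.

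The genes, lists and comparisons were chosen with earlier results of these data known. Genes named with values were, by rule, the largest and smallest organ difference of each complex, rbcL, the 3 smallest p per organ and direction for estradiol, and the 3 smallest for the difference. Others (ndhF, psbB, psbZ, psbJ and the members of transcription units) were chosen after their values were seen.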

Additional observations from a re-analysis of the deposited data

How the results depend on the processing

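Roots with DMSO and shoots with estradiol kept 2 arrays each. The counts of 33 and 32 genes higher in shoots (DMSO and estradiol) became 0 and 0 on all 12 arrays, 19 and 17 with a 2-fold threshold, and 20 and 18 without the genes near the maximum, where 20 remained to be tested; with array weights on 12 arrays they were 34 and 32. Leaving out 1 array at a time gave 30 to 33 and 29 to 31. On all 12 arrays 0 and 1 of all 38408 features were called in either direction. The shares of all features called with array weights or a 2-fold threshold are not given here. The medians of 0.86 and 0.77 became 0.57 and 0.55 on 12 arrays, 0.75 and 0.64 with quantile normalization, and 1.53 and 1.33 without the genes near the maximum, and ranged over 0.84 to 0.91 and 0.68 to 0.86 with 1 array left out. The cause was not tested beyond the construction of these settings.

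The estradiol counts stayed at 0 in roots, in shoots and for the difference under every alternative run. The medians on 12 arrays were -0.18 in roots, -0.17 in shoots and -0.018 for the difference, in place of 0.16, 0.01 and -0.14. With 1 array left out they ranged over 0.07 to 0.23 in roots, -0.01 to 0.03 in shoots and -0.20 to -0.05 for the difference. For the difference the median was -0.02 with a replicate block and -0.02 without replicate 3 in any group.

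With a replicate block 30 genes were called higher in shoots under each treatment, all of them among the 33 and 32, and 0 in the estradiol comparisons. Of all 38408 features 14457 (DMSO) and 14420 (estradiol) were then called between organs in either direction, and 0 in the estradiol comparisons. Deviations of same-numbered arrays correlated at -0.02 to 0.12 over 13 pairs, and the numbers were not taken to pair the samples. In groups with 2 arrays the deviations mirror each other, so the pairs are not separate checks and pairing was not excluded. The comparison of features per gene was not run, because each of the 39 genes has 1 single-gene feature, and the difference between organs was not run with compared groups alone, because it uses all groups. The table holds neither saturation flags nor signal over background, so what saturation does to the differences of bright genes was not tested.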
